A study of Mus musculus with 9 samples.

Results

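The receptor chains, kinases and feedback genes through which interleukin-6 (IL6) reaches STAT3 were followed in whole mouse liver. The 10 genes, taken by symbol, were Il6ra, Il6st, Osmr, Jak1, Jak2, Tyk2, Stat3, Socs1, Socs3 and Pim1, out of 55401 genes in the count table, and all 10 were among the 15717 genes with enough counts to be tested. RNA came from 9 livers of female mice, 3 in each group: healthy livers, livers with untreated hepatocellular carcinoma (HCC) and livers with HCC treated with miR-22. Mice entered the study at 6 weeks of age, and the labels name FVB/N in the protocol but C57BL/6 in the strain field. Both HCC groups carried tumors raised by hydrodynamic injection of sleeping beauty plasmids for myr-AKT, driven by the EF1α promoter, and NrasV12. A plasmid for N90-β-catenin is also listed in the labels' protocol, whereas the design text names RAS and AKT only.

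After 1 week, untreated HCC received a blank adeno-associated virus (AAV8) and treated HCC received AAV8 carrying miR-22 behind the CMV promoter, and livers were taken 5 weeks after the oncogenes. Healthy mice received neither plasmids nor virus, and no time is given for them, so tumor, injection and virus cannot be told apart in a comparison with healthy liver. Libraries held 18258660 to 20964551 counts in healthy liver, 18293676 to 23908392 in untreated HCC and 16664659 to 20459853 in treated HCC. Akt1, the gene delivered as myr-AKT, was at 103 to 109 CPM (counts scaled to a common library total) in healthy liver. It was at 1170 to 1673 in untreated HCC and 671 to 1104 in treated HCC. All HCC livers lay above all healthy livers, and all treated livers lay below all untreated livers. For this model the paper also reports a lower ratio of liver to body weight with miR-22. The part of tumor content in the differences between treated and untreated HCC was not tested. All CPM values below were normalized by the trimmed mean of M values (TMM). A gene was called where its fold change exceeded 1.5 with an adjusted p below 0.05, from edgeR's two-sided quasi-likelihood test with Benjamini-Hochberg adjustment over all tested genes.

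IL6 binds its own receptor chain, IL6RA, and the pair then recruits the shared chain gp130, the product of Il6st, whereas oncostatin M signals through OSMR joined to gp130. The kinases JAK1, JAK2 and TYK2 sit on the receptor tails and phosphorylate STAT3, which moves to the nucleus and switches on acute-phase genes in hepatocytes together with Socs3, Socs1 and Pim1. SOCS proteins bind the receptor or the kinase and shut the signal down, while PIM1 is a kinase that favours survival. STAT3 activity is set by phosphorylation, which RNA counts do not measure. For its mouse models the paper reports western blots in which IL6 receptor protein (IL6R) and active STAT3 were higher in untreated HCC. Both were lower with miR-22. Il6ra RNA, given below, went the other way in both comparisons.

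Since the treatment was a miRNA, its sequence is shown with the places in the members' 3′ UTRs that pair with its seed. The capitals mark the seed, bases 2 to 8, in the mature miRNA from RefSeq.

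mmu-miR-22-3p: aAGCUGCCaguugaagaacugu

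The letters searched were GGCAGCT, the complement of that seed, on the transcribed strand of GENCODE 3′ UTRs on GRCm39. Windows of 30 bases around each match follow, with the match in capitals.

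Socs3, chr11:117857753-117857782, minus strand: tcctctccatggGGCAGCTaatgaaacctc

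Socs3, chr11:117857146-117857175, minus strand: ggggctgggtggGGCAGCTgtgtgttgggg

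Socs1, chr16:10600526-10600555, minus strand: gtggagggaggaGGCAGCTagctgggaaac

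Il6ra, chr3:89778433-89778462, minus strand: tggatggtacctGGCAGCTggcagggcacc

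Il6st, chr13:112644123-112644152, plus strand: caggtcagcagtGGCAGCTccatccactcg

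Such a match was found in 4 of the 10 members (40.0%) and in 2287 of the 13550 tested genes with an annotated 3′ UTR (16.9%). The members' 3′ UTRs were longer, with a median of 1826.5 bases against 1341 over those genes, and Il6ra (7102 bases) and Il6st (5641 bases) were the longest of the 4. A match is a description of the letters and not a measured binding site. Of the 4 genes with a match, Socs3 was lower, Il6ra higher and Il6st and Socs1 not called in treated against untreated HCC.

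Untreated HCC differed from healthy liver in 4 of the 10 members. Osmr, Socs3 and Socs1 were higher and Il6ra was lower, whereas Il6st and the 3 kinases were not called. Called genes made up 40.8% of all tested genes in this comparison, 22.7% higher and 18.1% lower, so the members' share was near the background, and groups did not overlap for 5 members against 65.3% of all tested genes. Treated and untreated HCC differed in 3 members, Il6ra being higher and Socs3 and Osmr lower with miR-22, where 13.8% of all tested genes were called, 8.32% higher and 5.47% lower. These 3 members were also those whose HCC groups did not overlap, as in 39.3% of all tested genes. Treated HCC against healthy liver gave 2 called members, Osmr and Socs3, both higher, where 3772 of the tested genes were called (24.0%), 16.9% higher and 7.05% lower. Groups did not overlap for 4 members in that comparison, Osmr, Socs3, Stat3 and Jak2, against 48.8% of all tested genes. The 3 comparisons share livers, and each member's values are therefore given side by side.

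**Figure D1:**
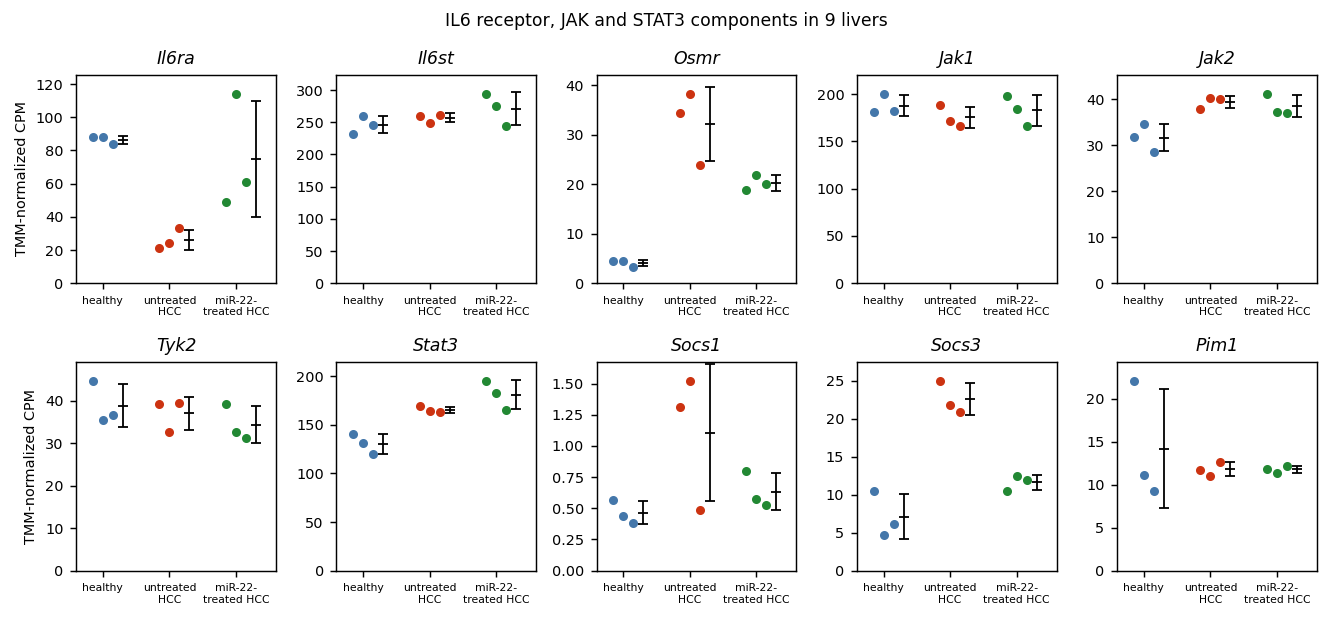
TMM-normalized CPM (y axis, linear from 0) of the 10 members in each of 9 livers. Points are livers, and bars beside them show the mean and SD of 3. Osmr sits between 23.8 and 38.3 in untreated HCC and between 3.30 and 4.46 in healthy liver, and Il6ra is lower in all 3 untreated HCC livers (21.5 to 33.1) than in any other liver.

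Among the receptor chains, Il6ra, the ligand-binding chain for IL6, stood at 88.0, 87.8 and 83.6 CPM in healthy liver. It was at 21.5, 24.0 and 33.1 in untreated HCC and at 48.9, 114 and 61.1 in treated HCC. All untreated HCC livers were below all others, and treated livers lay on both sides of the healthy range with a wide spread. Group means were 86.5 ± 2.52, 26.2 ± 6.13 and 74.8 ± 34.8 CPM (SD, n = 3 each). Il6ra fell by 1.72 on the log2 scale in untreated HCC (SE 0.256, inverse fold 3.29, adjusted p = 9.5e-05) and was higher by 1.51 in treated than in untreated HCC (SE 0.255, 2.84-fold, adjusted p = 0.00158). Treated HCC differed from healthy liver by -0.21 (95% interval -0.75 to 0.32, adjusted p = 0.538). Without treated replicate 3, the liver at 114 CPM, that difference was -0.65 with an adjusted p of 0.0101 and passed the call.

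In bulk liver, fewer cells of a type and less RNA per cell cannot be told apart, and Il6ra is expressed by hepatocytes. A hepatocyte list of 10 genes summed to 139614 to 143450.0 CPM in healthy liver, 55725 to 70131 in untreated HCC and 85784 to 107119.9 in treated HCC, with none of the 10 at 0. Of these genes, 9 were called lower in untreated HCC and 6 called higher with treatment, against 18.1% and 8.32% of all tested genes. The part of this in the Il6ra values was not tested.

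Il6st, which encodes gp130, was at 233, 259.6 and 246 CPM in healthy liver. The untreated livers were at 260.4, 249 and 262, and the treated livers at 295, 275 and 244. The groups overlapped in all comparisons. The differences were 0.06 in untreated HCC against healthy (95% interval -0.15 to 0.28), 0.08 in treated against untreated (-0.14 to 0.29) and 0.14 in treated against healthy (-0.07 to 0.35) on the log2 scale, with adjusted p of 0.605, 0.623 and 0.294. All 3 intervals lie within 1.5-fold.

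Osmr, the chain that pairs with gp130 to read oncostatin M, was at 4.46, 4.41 and 3.30 CPM in healthy liver. In untreated HCC it was at 34.4, 38.3 and 23.8, and in treated HCC at 18.8, 21.9 and 19.9. The 3 groups did not overlap, and treated HCC lay between the others. Osmr rose 7.93-fold in untreated HCC (log2 2.99, SE 0.190, adjusted p = 1.0e-07), was 1.59 times lower in treated than in untreated HCC (log2 -0.67, SE 0.164, adjusted p = 0.0116) and was 4.99 times higher in treated than in healthy liver (log2 2.32, SE 0.191, adjusted p = 2.4e-06). The treatment difference lost its call without untreated replicate 3 (log2 -0.53, adjusted p = 0.0617) and with edgeR's glmTreat, which tests against a 1.5-fold change rather than against 0. Osmr RNA is known from stromal cells as well as hepatocytes. A stellate and fibroblast list of 10 genes summed to 374 to 448 CPM in healthy liver, 881 to 1017 in untreated HCC and 743 to 841 in treated HCC. In untreated HCC 5 of the 10, Col1a1, Col3a1, Acta2, Pdgfrb and Lum, were called higher and 2, Lrat and Dcn, lower. Over all tested genes, 22.7% were called higher and 18.1% lower there. A ductal list of 6 genes summed to 29.5 to 42.1, 3340 to 6260 and 1568 to 2714 CPM in that order of groups. Most of that sum was Spp1 (3239 to 6077 CPM in untreated HCC), while the duct keratin Krt19 was at 2.28 to 5.81 CPM there and was not called, and 5 of the 6 genes were called higher. No gene of either list was at 0 in a whole group, and the part of either list in the Osmr values was not tested.

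Set against each other within each library, Osmr counts per Il6ra count were 0.0507, 0.0502 and 0.0394 in healthy liver. They were 1.60, 1.60 and 0.718 in untreated HCC and 0.385, 0.191 and 0.326 in treated HCC. Every treated liver thus lay between the healthy and untreated ranges. The ratio needs no scaling between libraries, but it follows from the fold changes above and adds no independent test.

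None of the 3 kinases was called in any comparison. Jak1, the main kinase of gp130, was at 181, 201 and 182 CPM in healthy liver, 188, 171 and 167 in untreated HCC and 198, 184 and 166 in treated HCC. Its groups overlapped, with differences of -0.10 (95% interval -0.31 to 0.11), 0.06 (-0.15 to 0.27) and -0.04 (-0.25 to 0.17) on the log2 scale for untreated against healthy, treated against untreated and treated against healthy. Jak2, which serves many cytokine receptors, was at 31.7, 34.7 and 28.6 CPM in healthy liver, 37.9, 40.2 and 40.0 in untreated HCC and 41.2, 37.1 and 37.1 in treated HCC. All HCC livers lay above all healthy livers, by 1.24-fold in untreated HCC (adjusted p = 0.0123) and 1.22-fold in treated HCC (adjusted p = 0.0345), both below the 1.5-fold limit. Over the other settings these adjusted p reached 0.0765 and 0.173, and the latter was 0.0799 with DESeq2. Treated and untreated HCC differed by -0.03 (-0.24 to 0.17). Tyk2, which also binds interferon receptors, ranged from 35.4 to 44.8 CPM in healthy liver, 32.6 to 39.6 in untreated HCC and 31.2 to 39.3 in treated HCC. Its groups overlapped, and its 3 intervals on the log2 scale ran from -0.34 to 0.20, -0.38 to 0.16 and -0.45 to 0.09. With TMM scaling, each of the Jak1 and Tyk2 intervals excludes a 1.5-fold change in either direction.

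Stat3, the transcription factor at the end of the pathway, was at 141, 131 and 119.8 CPM in healthy liver. It was at 169, 165 and 163 in untreated HCC and at 195, 183 and 165 in treated HCC. Every HCC liver was above every healthy liver, and the HCC groups overlapped. The difference from healthy liver was 1.27-fold in untreated HCC (log2 0.34, 95% interval 0.14 to 0.55, adjusted p = 0.00807) and 1.39-fold in treated HCC (log2 0.47, 0.27 to 0.68, adjusted p = 0.00212). Both passed the p threshold, as did 56.2% and 36.5% of all tested genes, and neither reached 1.5-fold. Over the other settings the adjusted p in untreated HCC reached 0.0575, and the log2 difference was 0.27 without healthy replicate 3. Treated HCC differed from untreated HCC by 0.13 (-0.08 to 0.34, adjusted p = 0.361). Stat3 overlaps Stat5a on the opposite strand and the libraries were not strand-specific, so reads from the overlap cannot be assigned by strand.

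Socs3, the inhibitor that docks on gp130, was at 10.4, 4.73 and 6.10 CPM in healthy liver. It was at 25.0, 21.9 and 20.9 in untreated HCC and at 10.5, 12.5 and 11.9 in treated HCC. The untreated livers were above all others, and the lowest treated liver was next to healthy replicate 1. Socs3 rose 3.19-fold in untreated HCC (log2 1.68, SE 0.220, adjusted p = 3.3e-05) and was 1.94 times lower in treated than in untreated HCC (log2 -0.96, SE 0.210, adjusted p = 0.0065). Treated HCC was 1.64 times higher than healthy liver (log2 0.72, SE 0.225, adjusted p = 0.0250), a call that was lost without healthy replicate 2 (adjusted p = 0.0998), healthy replicate 3 (0.0989), treated replicate 3 (0.0638) or treated replicate 4 (0.0560). With glmTreat both the treatment call and the call in treated HCC against healthy liver were lost for Socs3. Healthy replicate 1 also stood apart in Fos, an immediate-early gene, at 23.1 CPM against 2.27 and 1.48 in the other healthy livers, and in Junb at 126 against 28.9 and 18.5. Without healthy replicate 1 the Socs3 differences from healthy liver were 2.04 in untreated HCC (adjusted p = 2.9e-06) and 1.08 in treated HCC (adjusted p = 6.5e-04).

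Socs3 was also the only member with a STAT motif in its promoter window, 250 bases before to 50 after the start in RefSeq (GRCm38.p6). The letters searched were TTCNNNGAA, which read the same on both strands, and they occur in 2726 of 32851 promoters (8.30%). The match lies 154 bases before the start and is shown in capitals.

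Socs3 promoter, chr11:117969502-117969530, minus strand: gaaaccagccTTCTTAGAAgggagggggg

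Socs1, which blocks JAK kinases, was measured on few counts: 9, 7 and 7 in healthy liver, 28, 34 and 13 in untreated HCC and 14, 9 and 11 in treated HCC. In CPM it was at 0.566, 0.441 and 0.385, then 1.31, 1.52 and 0.486, then 0.801, 0.574 and 0.523. Untreated replicate 4 lay inside the healthy range, so the groups overlapped. Socs1 was 2.35 times higher in untreated HCC (log2 1.23, SE 0.493, adjusted p = 0.0484), and that call was lost with DESeq2 (adjusted p = 0.0802), without the filter on low counts (0.0684), in a fit of these 2 groups alone (0.0543), with glmTreat, and without any single healthy liver or untreated replicate 2 or 3 (0.0697 to 0.183). The treatment difference was -0.79 (95% interval -1.81 to 0.23, adjusted p = 0.250), so no difference was detectable at this depth.

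Pim1, a STAT3 target, was at 22.1, 11.2 and 9.23 CPM in healthy liver. It was at 11.7, 10.97 and 12.6 in untreated HCC and at 11.8, 11.3 and 12.1 in treated HCC. Only healthy replicate 1 left the range of 9.23 to 12.6 CPM held by the other 8 livers, and that liver was also the one high in Fos and Junb. Untreated HCC differed from healthy liver by -0.26 (95% interval -0.80 to 0.27), or by 0.20 without healthy replicate 1, and treated from untreated HCC by -0.00 (-0.54 to 0.54).

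**Figure D2:**
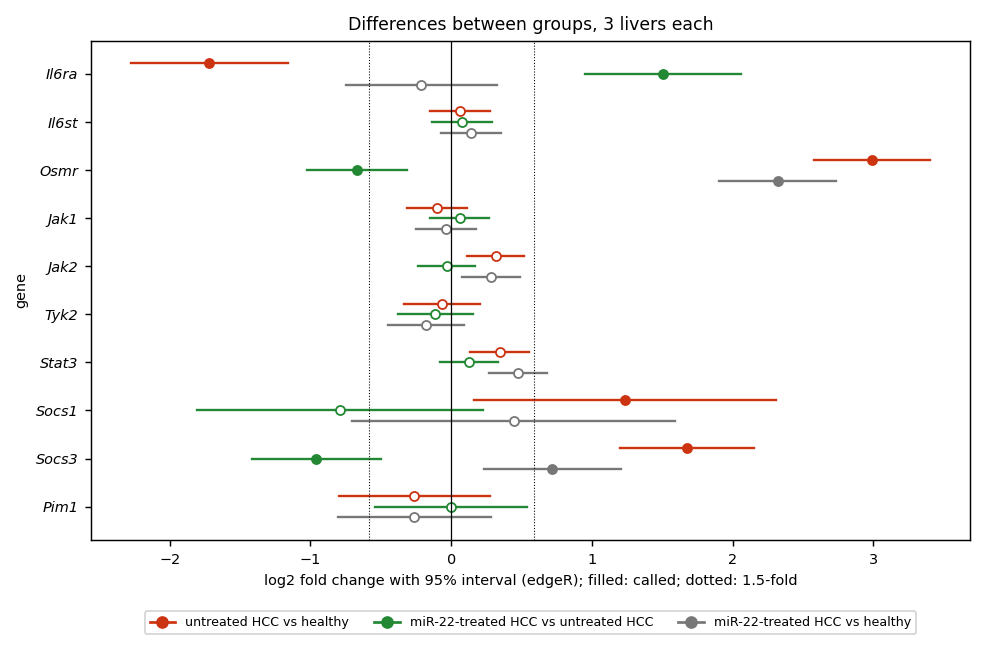
Log2 fold change from edgeR (x axis) of the 10 members in the 3 comparisons, with 95% intervals. Filled points passed the call and dotted lines mark 1.5-fold. Osmr is the farthest from 0, at 2.99 in untreated HCC against healthy, and Il6ra (1.51) lies opposite to Socs3 (-0.96) and Osmr (-0.67) in treated against untreated HCC.

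Levels of different genes can be compared only per length. In healthy liver, CPM per kilobase of the canonical transcript was 33.3 ± 1.97 for Jak1, 28.6 ± 2.28 for Stat3 and 28.4 ± 1.55 for Il6st (SD, n = 3 each), and the last 2 of these did not differ beyond their spread. Il6ra followed at 10.01 ± 0.291, Tyk2 at 7.91 ± 1.03, Jak2 at 5.76 ± 0.548, Pim1 at 4.98 ± 2.43, Socs3 at 2.66 ± 1.12, Osmr at 0.738 ± 0.120 and Socs1 at 0.142, with Pim1 within the spread of its neighbours. In untreated HCC the order was Stat3 at 36.3 ± 0.670, Jak1 at 31.1 ± 2.00, Il6st at 29.6 ± 0.799, Socs3 at 8.49 ± 0.805, Tyk2 at 7.54 ± 0.792, Jak2 at 7.16 ± 0.231, Osmr at 5.85 ± 1.36, Pim1 at 4.13 ± 0.285, Il6ra at 3.03 ± 0.709 and Socs1 at 0.339. Jak1 and Il6st overlapped there, and Tyk2 overlapped with its neighbours Socs3 and Jak2, whereas Jak2 and Osmr overlapped by mean ± SD and Socs3 lay above Jak2. In treated HCC, Stat3 was at 39.7 ± 3.33, Jak1 at 32.4 ± 2.83, Il6st at 31.3 ± 2.95, Il6ra at 8.65 ± 4.02, Jak2 at 7.00 ± 0.434, Tyk2 at 6.99 ± 0.877, Socs3 at 4.37 ± 0.380, Pim1 at 4.13 ± 0.150, Osmr at 3.68 ± 0.281 and Socs1 at 0.194. In treated HCC the spread of Il6ra reached from Socs3 to above Jak2 and Tyk2. Jak1 and Il6st could not be separated, nor could Jak2 and Tyk2, and the ranges of Socs3, Pim1 and Osmr over the livers overlapped. The transcript lengths come from GENCODE vM39 and may differ from those behind the deposited counts.

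On GRCm39, Stat3 (ENSMUSG00000004040.16, chr11:100775924-100830450) and Socs3 (ENSMUSG00000053113.3, chr11:117856905-117860898) lie on the same chromosome. Il6ra (ENSMUSG00000027947.11) lies at chr3:89771366-89820719 in 10 exons, Il6st (ENSMUSG00000021756.12) at chr13:112600604-112646620 in 17, Osmr (ENSMUSG00000022146.12) at chr15:6843053-6904450 in 18 and Socs1 (ENSMUSG00000038037.5) at chr16:10600104-10603875 in 2. Jak1 (ENSMUSG00000028530.14) lies at chr4:101008838-101122487, Jak2 (ENSMUSG00000024789.13) at chr19:29228677-29290505, Tyk2 (ENSMUSG00000032175.11) at chr9:21015363-21042689 and Pim1 (ENSMUSG00000024014.8) at chr17:29709581-29715086. Each of the 10 genes overlaps at least 1 annotated gene on the opposite strand.

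Of the cytokines that use gp130, the RNA of IL6 itself was nearly absent. Il6 had 1, 0 and 3 counts in healthy liver, 2, 0 and 3 in untreated HCC and 3, 3 and 0 in treated HCC, and Osm had 0, 0 and 0, then 1, 3 and 1, then 2, 4 and 2. At this depth no difference in Il6 was detectable, and these values do not measure cytokine reaching the liver from elsewhere. Il11 held 0, 0 and 0 counts in healthy liver, 11, 2 and 6 in untreated HCC and 0, 2 and 2 in treated HCC, and Il27 0 to 13 counts across the 9 livers. Il31 was at 0 counts in every liver. Il11 did not pass the filter on low counts, and was called higher in untreated HCC with DESeq2 (adjusted p = 0.0236) and without that filter (0.0132).

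Of the 11 ligand genes, 6 had enough counts to be tested, and 3 of the 6 were called higher in untreated HCC, against 22.7% of all tested genes. Their median log2 fold change over the 6 was 1.29, against 0.01 over all genes. Lif, which signals through gp130 and LIFR, had 1, 1 and 4 counts in healthy liver, 249, 215 and 203 in untreated HCC and 56, 46 and 112 in treated HCC. All 3 groups were apart, and Lif was lower in treated than in untreated HCC by -1.32 on the log2 scale (adjusted p = 0.00428). Clcf1, a ligand of the CNTF receptor, was at 0.378 to 2.14 CPM in healthy liver, 15.3 to 25.4 in untreated HCC and 6.82 to 13.6 in treated HCC. Its log2 differences were 3.88 in untreated HCC against healthy (adjusted p = 4.0e-06) and -1.001 with treatment (adjusted p = 0.0360). The treatment call was lost for Clcf1 with DESeq2 (adjusted p = 0.137) and without treated replicate 2 or 3 or untreated replicate 2 or 3 (0.0888 to 0.168). Ebi3, a subunit of IL27, rose by 2.36 in untreated HCC (adjusted p = 0.00516) from under 0.4 CPM and was not called for treatment (-0.84, adjusted p = 0.268). Ctf1, Ctf2 and Cntf were not called in either comparison.

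Of 6 other receptors of the family 4 were tested, and 3 of them were lower in untreated HCC, the direction of Il6ra (median log2 fold change -1.21). Over all tested genes, 18.1% were called lower there. Lifr, the partner of gp130 for LIF, was at 612, 578 and 662 CPM in healthy liver, 124, 149.6 and 164 in untreated HCC and 421, 348 and 223 in treated HCC. The 3 groups did not overlap. Lifr fell by 2.08 on the log2 scale in untreated HCC (adjusted p = 2.1e-06) and was higher by 1.18 with treatment (adjusted p = 0.00122). Cntfr fell by 1.70 and Il11ra1, the IL11 chain, fell by 0.72 in untreated HCC (adjusted p = 5.2e-04 and 5.2e-05). Their treatment differences were 0.86 (adjusted p = 0.0746) and 0.40 (adjusted p = 0.0122, below 1.5-fold). Il27ra was not called in any comparison. Il31ra had 1 count in all.

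**Figure D3:**
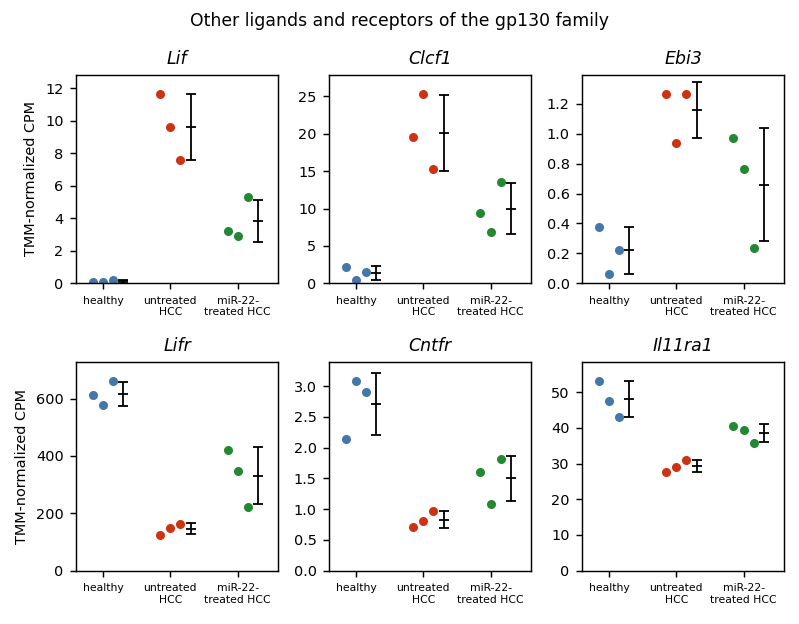
TMM-normalized CPM (y axis, linear from 0) of 3 other ligands (top) and 3 other receptors (bottom) of the gp130 family in each of 9 livers, with mean and SD of 3. Lif and Clcf1 are highest in the untreated HCC livers (7.58 to 11.7 and 15.3 to 25.4), and Lifr is lowest there (124 to 164).

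Of 7 other JAK and STAT genes tested, Jak3, a kinase of lymphoid cytokine receptors, rose by 1.28 on the log2 scale in untreated HCC (adjusted p = 1.9e-06) and Stat5b, which relays growth hormone in hepatocytes, fell by 0.66 (adjusted p = 4.5e-05). None was called between treated and untreated HCC by edgeR or by DESeq2, and 1 of the 7, Stat5b, passed the p threshold before and after adjustment but stayed below 1.5-fold (log2 0.41, adjusted p = 0.00627). Stat2, Stat4, Stat5a and Stat6 were not called in any comparison, but Stat4, at most 1.01 CPM, was called higher in untreated HCC without healthy replicate 1 (adjusted p = 0.0220).

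Other inhibitors of the pathway held 17 tested genes, of which 2 were higher and 1 lower in untreated HCC, against 22.7% and 18.1% of all tested genes. Socs5 rose by 1.09 (adjusted p = 6.9e-05), Pdlim2, which targets STAT proteins for degradation, by 1.23 (adjusted p = 0.00469), and Cish, a target of STAT5, fell by 1.06 (adjusted p = 0.0280). The Cish call was lost with DESeq2 (adjusted p = 0.0922), without healthy replicate 3 (log2 -0.60, adjusted p = 0.187), the highest liver at 40.4 CPM, and without untreated replicate 2 (0.0935) or 3 (0.0628). None was called for treatment by edgeR or DESeq2, since none reached 1.5-fold, although Socs5 did without treated replicate 4 (-0.60) or untreated replicate 4 (-0.59). An adjusted p below 0.05 was reached by 4 (6 at an unadjusted p below 0.05), against 24.0% of all tested genes. The smallest were those of Socs4 (log2 0.29, adjusted p = 0.0224), Socs5 (-0.49, 0.0328) and Ptpn1 (-0.28, 0.0455). Socs2, Socs6 and Socs7 were not called in any comparison with all livers. In untreated HCC, Socs6 (0.54, adjusted p = 0.00167) was called higher without healthy replicate 2 (0.59) or untreated replicate 4 (0.62). Pias2 (-0.53) and Sh2b3 (-0.56) had small p in untreated HCC but stayed below 1.5-fold with all livers. Pias2 was called lower without untreated replicate 3 (-0.62), and Sh2b3 without healthy replicate 3 (-0.63) or untreated replicate 4 (-0.66).

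Of 8 genes for receptor shedding and adaptors, 3 were higher and 2 lower in untreated HCC, and 1 was lower with treatment. The shares over all tested genes were 22.7%, 18.1% and 5.47%. Rhbdf2, a partner of the sheddase ADAM17, was at 12.6 to 13.9 CPM in healthy liver, 42.5 to 51.6 in untreated HCC and 19.6 to 34.4 in treated HCC. It rose by 1.88 on the log2 scale in untreated HCC (adjusted p = 1.8e-06) and differed by -0.78 with treatment (adjusted p = 0.00532), or by -0.58, under 1.5-fold, without treated replicate 3. Adam10 rose by 0.78 and Gab1, an adaptor, fell by 0.82 in untreated HCC. Their treatment differences, -0.40 and 0.37, were below 1.5-fold.

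Known transcriptional targets of STAT3 numbered 24 tested, with 11 higher and 2 lower in untreated HCC (median 0.56) and 2 higher and 6 lower with treatment (median -0.17). The shares over all tested genes were 22.7% higher and 18.1% lower in untreated HCC, and 8.32% and 5.47% with treatment. Lrg1, a secreted glycoprotein, rose by 1.88 and Icam1, an adhesion molecule, by 2.27 in untreated HCC. Timp1, a protease inhibitor, had 2, 2 and 3 counts in healthy liver, at or under the floor of 3 counts, and 6.50 to 9.54 CPM in untreated HCC. With treatment, Pim3, a relative of Pim1, was at 60.0 to 112 CPM against 20.0 to 25.7 in untreated HCC, higher by 1.77 (adjusted p = 1.9e-04). Cebpb, a transcription factor of the acute-phase response, was higher by 1.07 (adjusted p = 7.7e-04), and Ccnd1, which encodes cyclin D1, fell by 0.99 (adjusted p = 3.3e-04). The targets thus moved both ways in the treatment comparison.

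Acute-phase genes also went both ways. Of 25 tested, 10 were higher and 8 lower in untreated HCC (median -0.24), and 6 were higher and 3 lower with treatment (median 0.37), or 8 in all with DESeq2, which did not call Fgg. Lcn2, which encodes an iron-scavenging protein, was at 2.80 to 6.41 CPM in healthy liver and 1244 to 2013 in untreated HCC, and Cd14, a receptor for bacterial lipid, at 4.07 to 4.27 and 131 to 249. Both were lower with treatment, Lcn2 at 848 to 1259.6 CPM (log2 -0.83, adjusted p = 0.0308) and Cd14 at 76.1 to 118.97 CPM (log2 -0.95, adjusted p = 0.00629). The Lcn2 treatment call was lost without treated replicate 2 or 3 or untreated replicate 2 or 3 (adjusted p = 0.0990 to 0.122). The third gene lower with treatment was A2m, a protease inhibitor, at 13.1 to 42.1 CPM in untreated and 6.19 to 8.09 in treated HCC (log2 -1.95, adjusted p = 0.00169), which held 0, 0 and 2 counts in healthy liver. Orm2 rose by 2.87. Of the genes lower in untreated HCC, Saa4, a constitutive serum amyloid, fell by 1.45 and Serpina3m, a serpin, fell by 1.94, and these were higher with treatment by 1.20 (adjusted p = 7.7e-04) and 1.17 (adjusted p = 7.8e-04). Crp differed by 0.58 with treatment, just under 1.5-fold, and passed that limit without treated replicate 4 or untreated replicate 3 or 4 (0.59 to 0.63). Over the 91 tested genes of these lists, 47 (51.6%) were called in untreated HCC against healthy and 21 (23.1%) in treated against untreated HCC, where the background was 40.8% and 13.8%.

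**Figure D4:**
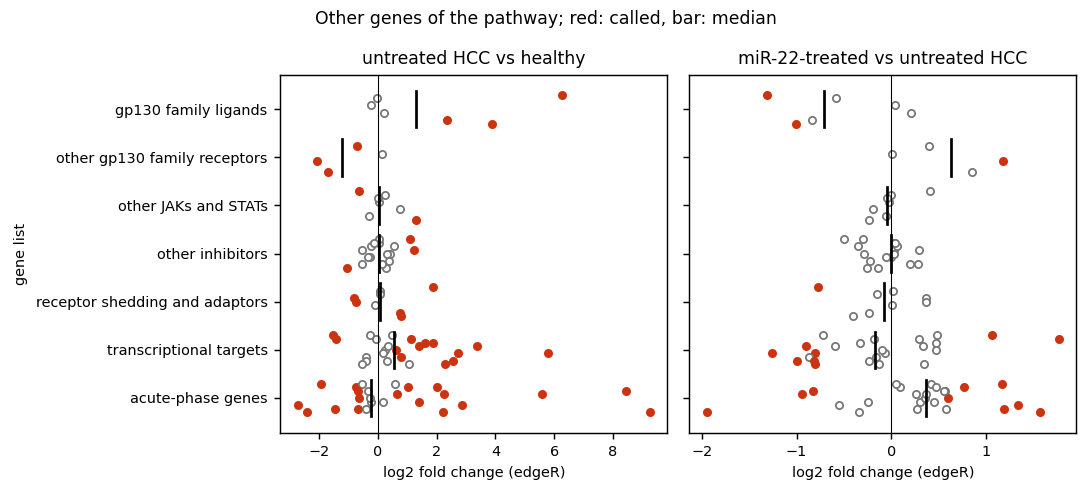
Log2 fold change from edgeR (x axis) of the tested genes in 7 other pathway lists, in untreated HCC against healthy (left) and treated against untreated HCC (right). Red points passed the call, open points did not and vertical bars are list medians, which for receptors are -1.21 on the left and 0.63 on the right.

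A neutrophil list of 10 genes summed to 1.83 to 4.59 CPM in healthy liver, 18.1 to 23.6 in untreated HCC and 17.8 to 26.3 in treated HCC, with Ly6g, Elane and Camp at 0 in all healthy livers. A Kupffer cell and macrophage list of 10 genes summed to 379 to 466, 384 to 439 and 461 to 493 CPM in that order, but its members went both ways. In untreated HCC, Cd68 and C1qa were called higher and Timd4 and Cd163 lower. For 9 of the 10 the groups did not overlap, 5 above and 4 below healthy liver, against 65.3% of all tested genes. Lcn2, Cd14 and Socs3 are also expressed in such cells, and the part of either list in those values was not tested.

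By Pearson r over the 9 livers on log2 CPM, the genes most like Il6ra were Gm27252 (0.989), Psmb10 (0.985), Hhipl1 (0.983), Mast3 (0.982) and Slc25a51 (0.981). Those most like Socs3 were Lrp10 (0.988), Jund (0.988), Gm26115 (0.987), Cd109 (0.985) and Ppp2cb (0.985). For Stat3 they included Clec7a (0.988), Plek (0.974), Tmx3 (0.963) and Cd86 (0.961). These values describe the 9 livers, which share the group differences, and no test was made of them.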

How the data were processed

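Total RNA of whole liver was extracted with TRIzol and sequenced as pairs of 150 bases from libraries that keep no strand. Per the paper's methods, the authors quantified reads with Salmon and summed them per gene with tximport on GRCm39, and their processing notes name FastQC 0.11.7 and DESeq2 1.18. The authors deposited whole-number counts per gene, neither normalized nor filtered, and these were used. A second deposited table, normalized by size factors, was not used. Groups came from the labels, 3 livers each, and p-values measure only the spread between those livers.

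In R 4.3.3, edgeR 4.0.16 (filterByExpr, TMM, quasi-likelihood F test, 3 groups in 1 fit, two-sided) was run on all 55401 genes, of which 15717 passed the filter. TMM factors were 0.865 to 0.872 in healthy liver, 1.12 to 1.22 in untreated HCC and 0.942 to 1.03 in treated HCC. The fold changes, their intervals and the overlap of groups depend on this scaling. The common dispersion was 0.0206. Adjusted p-values are Benjamini-Hochberg over the tested genes, with a call at adjusted p below 0.05 and over 1.5-fold. A floor of 3 counts per library was used, and counts cover counting error only for reads without molecular identifiers. The steps were tested on simulated data with known fold changes. Alternatives were DESeq2 1.42.0, other scaling, no filter or a minimum of 10 counts, glmTreat, a fit of 2 groups, a replicate block, and leaving out each liver. Gene positions and 3′ UTRs came from GENCODE vM39, matched by gene identifier, and miRNA and promoter sequences from RefSeq (GRCm38.p6).

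The members and gene lists were chosen with earlier results of these data known. Named genes were all members, every ligand, receptor, JAK, STAT and SOCS or CIS gene of the lists, the 3 genes with the smallest p in the remaining lists in untreated HCC against healthy and in treated against untreated HCC, and the 5 genes most like Stat3, Socs3 and Il6ra. A few genes that this rule names are not reported here. Pdlim2, Fos, Junb, A2m, Fgg and the markers named singly were added after their values were seen. Figures were drawn with Python 3.11.15 and matplotlib 3.10.9.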

Additional observations from a re-analysis of the deposited data

How the results depend on the processing

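Over the settings that give a value for each member (all but glmTreat and no fold limit), 106 of 119 member values kept direction and call in untreated HCC against healthy, 115 of 119 in treated against untreated HCC and 109 of 118 in treated HCC against healthy. Leaving out 1 liver at a time gave 3 to 4 called members in the first comparison, 2 to 3 in the second and 1 to 2 in the third, the last with 1 called without healthy replicate 2, healthy replicate 3 or treated replicate 4. Over the other pathway genes it gave 43 to 49, 16 to 28 and 32 to 37. With no fold limit, treated HCC against healthy called 4 members and treated against untreated HCC called 38 pathway genes. With glmTreat, which tests against 1.5-fold, 1 member was called in each of these comparisons, Osmr in treated HCC against healthy (Socs3 lost) and Il6ra in treated against untreated HCC (Socs3 and Osmr lost), and Socs1 was lost in untreated HCC against healthy, with 7 pathway genes called in treated against untreated HCC and 23 in treated HCC against healthy. Among the pathway genes named, Lif, Clcf1, Rhbdf2, Icam1, Timp1, Lcn2, Cd14 and Fgg lost their treatment calls with glmTreat. Clcf1, Lcn2 and Fgg also lost them with the replicate block (adjusted p = 0.0800, 0.0874 and 0.108). In untreated HCC against healthy, Il11ra1, Stat5b, Cish, Crp and Fgg lost their calls with glmTreat (adjusted p = 0.104, 0.210, 0.132, 0.176 and 0.411). The cause was not tested, beyond the stricter test by construction.

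The direction reversed for some settings of 4 members, in comparisons where none was called with all livers and settings as reported. Tyk2 in untreated HCC against healthy was 0.047 with the replicate block and ran from -0.14 to 0.032 when livers were left out. Pim1 was 0.17 with the block against healthy in both HCC groups, and ran from -0.51 to 0.20 in untreated HCC, -0.51 to 0.19 in treated HCC and -0.051 to 0.053 for treatment. Jak1 ran from -0.0037 to 0.12 for treatment and from -0.11 to 0.024 in treated HCC against healthy, and Il6ra from -0.65 to 0.0055 in treated HCC against healthy.

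The replicate numbers did not pair the livers: same-numbered livers of the HCC groups deviated from their group means with correlations of -0.12, -0.13 and -0.24, and no liver of these 2 groups was best matched by its own number in the other group, while correlations with same-numbered healthy livers lay between -0.030 and 0.026. With the replicate block 4, 3 and 2 members and 47, 17 and 32 other pathway genes were called in the 3 comparisons. A minimum of 10 counts in every liver removed Socs1, which then gave no value. Depth limits Socs1 and the ligands Il6, Osm, Il11 and Il27, which held few counts in every liver.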
